A study of Homo sapiens with 26 samples.

Results

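The comparison described is that of glucocorticoid receptor (GR) occupancy with budesonide alone, in A549 cells that carried an adenovirus for the NF-κB inhibitor IκBαΔN (Ad-IκBαΔN) against cells that carried an adenovirus for green fluorescent protein (Ad-GFP). For each region, the authors' log2 GR intensity in Ad-GFP cells was subtracted from that in Ad-IκBαΔN cells, and all 10740 of the 10740 regions of the deposited table had both values. A549 is an established human lung carcinoma line with features of alveolar epithelium. Both groups were infected, kept overnight without serum and given 300 nM of the synthetic glucocorticoid budesonide for 1 h before chromatin immunoprecipitation with sequencing (ChIP-seq) for GR, and differed by the labels only in the gene the virus carried. Each group had 2 libraries from 2 independent experiments, so that 4 of the 26 libraries of the series enter here, but the table holds 1 value per region and group. The sources used here do not give how the libraries were combined and scaled, or which share of the cells was infected.

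GR is a hormone-activated transcription factor that waits in the cytoplasm with chaperones, moves to the nucleus when a glucocorticoid binds it, and binds DNA at glucocorticoid response elements (GREs), inverted repeats of a short half-site, usually in chromatin that is already open. NF-κB, whose RELA subunit drives inflammatory genes, is held inactive by IκBα until IκBα is phosphorylated near its N terminus and degraded. IκBαΔN lacks that N-terminal part, resists degradation and keeps NF-κB inactive, and in airway epithelial cells glucocorticoids and NF-κB act on many of the same genes.

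The regions below carry the results described further on, and stretches of them are shown as read from the plus strand of hg38. In the first 4, capitals mark matches to the κB motif, the NF-κB binding sequence. They are the region with the lowest difference (upstream of BIRC2, chr11:102346035-102346194), the region with the highest (upstream of STX11, chr6:144150127-144150286), the most raised region of the NF-κB-dependent inflammatory gene list when each gene is taken at its strongest region (CXCL10, chr4:76023562-76023721), and a stretch of 30 bases in the strong region over an exon of NFKBIA (chr14:35403953-35403982).
BIRC2: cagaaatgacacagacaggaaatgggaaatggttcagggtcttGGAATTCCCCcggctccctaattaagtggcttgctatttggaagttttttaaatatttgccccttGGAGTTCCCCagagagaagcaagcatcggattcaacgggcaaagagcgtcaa
STX11: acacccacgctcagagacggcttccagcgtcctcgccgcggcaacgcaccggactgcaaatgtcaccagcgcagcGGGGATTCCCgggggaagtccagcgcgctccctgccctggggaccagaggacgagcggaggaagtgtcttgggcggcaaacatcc
CXCL10: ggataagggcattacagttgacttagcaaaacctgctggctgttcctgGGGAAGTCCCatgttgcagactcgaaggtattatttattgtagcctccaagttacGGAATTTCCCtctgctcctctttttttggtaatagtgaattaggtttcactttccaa
NFKBIA: caggcgcccaGGGACTTTCCgcccccctcc

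In the next pair, capitals mark the best match to the GRE, searched as the half-sites AGAACA and TGTTCT spaced 3 bases apart with at most 2 mismatches in the 12 fixed bases. They are the region with the highest GR signal in both groups (16.4 kb upstream of PRR20G, chr3:127304271-127304430) and the FKBP5 intron region (chr6:35722487-35722646). The PRR20G region is also of repetitive sequence, with 68.0% of its 10-base words distinct.
PRR20G: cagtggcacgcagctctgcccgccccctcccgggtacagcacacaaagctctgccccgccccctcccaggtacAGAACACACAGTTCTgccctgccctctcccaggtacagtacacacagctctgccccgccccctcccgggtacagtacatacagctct
FKBP5: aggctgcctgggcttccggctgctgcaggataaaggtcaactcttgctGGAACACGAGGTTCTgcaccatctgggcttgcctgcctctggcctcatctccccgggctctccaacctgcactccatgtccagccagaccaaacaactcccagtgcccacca

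In the last stretch, capitals mark the commonest 10-base word of the region. It is a tandem repeat in an intron of COL4A2 (chr13:110481509-110481668), with strong GR signal that was higher in Ad-IκBαΔN cells.
COL4A2: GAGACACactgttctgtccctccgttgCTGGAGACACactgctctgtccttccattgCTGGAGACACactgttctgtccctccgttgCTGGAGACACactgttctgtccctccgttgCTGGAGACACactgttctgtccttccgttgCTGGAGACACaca

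GR bound much the same regions in both groups. Across the 10740 regions the median signal was 21.6 in Ad-IκBαΔN cells and 21.7 in Ad-GFP cells, and the median log2 difference was 0.02. Of the 1074 regions with the strongest signal in Ad-IκBαΔN cells, 1006 were also among the 1074 strongest in Ad-GFP cells, and 94 of the strongest 100 were shared. The difference was under 0.5 log2 in size at 8710 regions, which is 81.1%. In Ad-IκBαΔN cells 432 regions were at least 2-fold higher, which is 4.02% of all regions, and 2 were at least 2-fold lower, which is 0.0186%. After quantile normalization, which gives both groups the same distribution of values, the counts were 23 higher and 29 lower. Signal here is the mean read coverage per base over the 400 bp region, recovered from the deposited log2(signal + 1), and a fold is taken on that log2(signal + 1) scale, on which differences between low signals look smaller than they are. No difference below has a replicate check, so no p-value or SD between replicates is given. Its distance from 0 depends on how the groups were scaled.

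The 432 higher regions were nearly all regions where GR signal with budesonide was low. When the regions were ranked by their mean intensity over both groups and cut into 10 bins of 1074, 423 of the 432 lay in the 3 lowest bins, which is 97.9%. In the lowest bin the median signal was 4.99 in Ad-IκBαΔN cells and 2.77 in Ad-GFP cells, and the median log2 difference was 0.70. The median log2 difference was lower in each bin than in the bin before it, at 0.55, 0.40, 0.21 and 0.03 in bins 2 to 5 and at -0.02, -0.06, -0.13 and -0.17 in bins 6 to 9. In the highest bin the signals were 89.3 in Ad-IκBαΔN cells and 105.8 in Ad-GFP cells, with a median of -0.24. Weak regions were thus higher and strong regions lower in Ad-IκBαΔN cells, and the crossing point came near the middle of the range. The spread of the difference across regions was also wider where signal was low, with an SD across regions of 0.45 in the lowest bin and 0.14 in the highest. Low values carry more counting error and both axes hold the same values, so the bins were also cut on other libraries, those of Ad-IκBαΔN cells given budesonide with IL1B. The lowest and highest bins then had medians of 0.49 and -0.23.

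**Figure D1:**
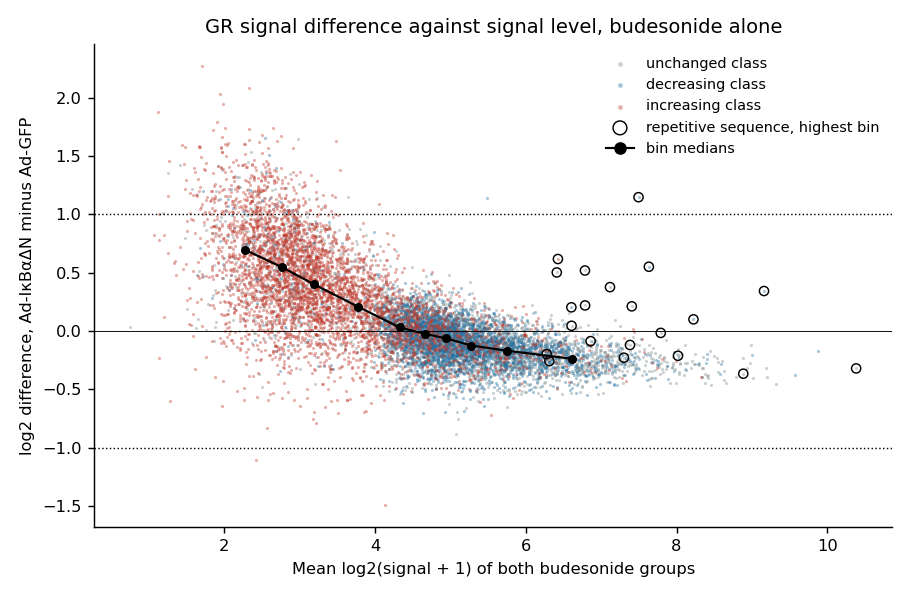
Each point is 1 region, with the mean log2(signal + 1) of both budesonide groups on the horizontal axis and the log2 difference, Ad-IκBαΔN minus Ad-GFP, on the vertical axis, coloured by the authors' class. Black dots join the medians of the 10 bins, which run between 0.70 and -0.24, dotted lines mark a 2-fold difference and open circles mark the 21 regions of repetitive sequence in the highest bin.

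The weakest regions with budesonide were not the weakest of every group. In the lowest bin the median signal of untreated cells was 7.29 in Ad-IκBαΔN cells and 6.18 in Ad-GFP cells, above the budesonide values of the same virus, and with budesonide and IL1B it was 9.96 in Ad-IκBαΔN cells and 45.4 in Ad-GFP cells. Whether the scales of treatments can be compared is not known from the table. Signal level therefore stands beside each group of regions below, and a difference "relative to its bin" is one from which the median of the region's signal bin was subtracted.

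By the authors' classes, which the table names increasing, unchanged and decreasing without a definition, the increasing class stood apart as deposited and not relative to its bins. Its 4345 regions, 40.5% of all, had a median signal of 9.57 in Ad-IκBαΔN cells and 6.90 in Ad-GFP cells, a median log2 difference of 0.32 and 357 of the 432 higher regions. The 3411 unchanged regions had 30.4 in Ad-IκBαΔN cells and 31.8 in Ad-GFP cells, a median of -0.08, which was just above 0 after quantile normalization, and 52 higher regions. The 2984 decreasing regions had 30.2 in Ad-IκBαΔN cells and 32.4 in Ad-GFP cells, a median of -0.10 and 23 higher regions. Within the lowest bin the medians were 0.69, 0.66 and 0.72 in the increasing, unchanged and decreasing classes, and within the highest bin -0.21, -0.25 and -0.24. Relative to the bins the class medians were 0.01, -0.00 and -0.01.

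The 404 regions within 1 kb of a gene start did stand somewhat higher than other regions of like signal. Their median log2 difference was 0.19, and 0.09 relative to the bins. The gap was widest in bin 3, where 72 such regions had a median of 0.62 and the 1002 farther regions one of 0.39. In the highest bin it had narrowed to -0.21 at 30 regions near a gene start and -0.24 at the 1044 others. Regions near a gene start tend to be rich in G and C, and the 20% of regions with the most G and C had a median of 0.04 relative to their bins. The part of base composition in the gap was not tested further.

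**Figure D2:**
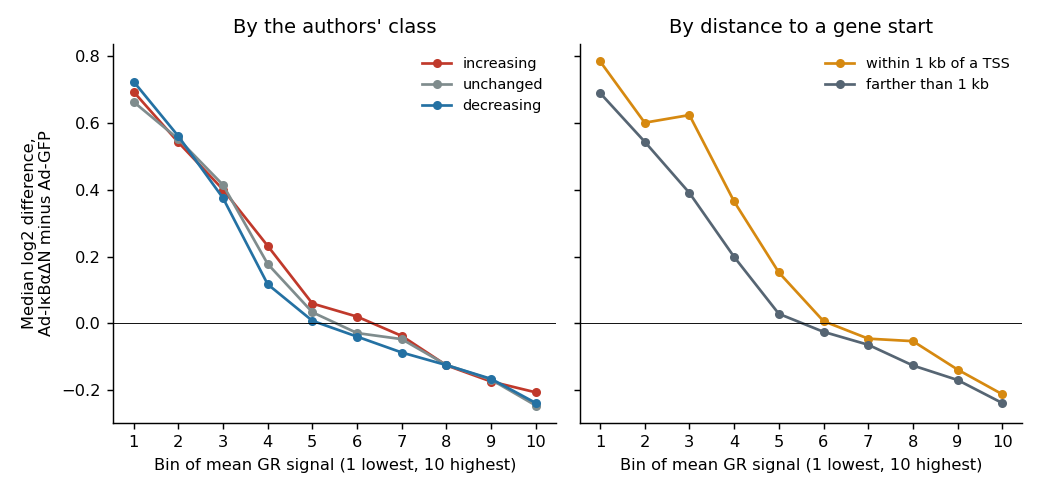
Median log2 difference, Ad-IκBαΔN minus Ad-GFP, in 10 bins of mean GR signal with budesonide, by the authors' class (left) and by distance to a gene start (right). The 3 classes run close together, within 0.66 to 0.72 in the lowest bin, while regions within 1 kb of a gene start lie above the others in every bin.

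Regions of glucocorticoid-induced genes were strong in both groups and slightly lower in Ad-IκBαΔN cells. The list of 30 genes had 93 regions linked to 27 of them, each region being assigned to whichever protein-coding gene starts closest to it, within 100 kb. Their median signal was 45.4 in Ad-IκBαΔN cells and 48.8 in Ad-GFP cells. The median log2 difference was -0.13, against 0.02 for all regions, and -0.04 relative to the bins, with 2 of the 93 regions at least 2-fold higher and 0 at least 2-fold lower. Over all regions the shares were 4.02% and 0.0186%. When each gene was taken at its lead region, the linked region with the highest mean intensity, 23 of 27 lay below 0 and 4 above. This choice favours strong regions, and in bins 9 and 10 only 12.4% and 5.31% of all regions lay above 0. The count therefore does not set these genes apart from other strong regions.

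The lowest lead region of that list was in an intron of FGD4, a gene for an exchange factor of the GTPase CDC42 (chr12:32457362-32457761), with 122 in Ad-IκBαΔN cells and 167 in Ad-GFP cells, a log2 difference of -0.45. The FKBP5 intron region, whose GRE is shown above, had 340 in Ad-IκBαΔN cells and 455 in Ad-GFP cells, a difference of -0.42. FKBP5 encodes a co-chaperone that restrains GR, and 4 of its 5 linked regions lay below 0, the exception having 23.4 in Ad-IκBαΔN cells and 20.8 in Ad-GFP cells. Relative to their bins the 5 lay between -0.33 and 0.19. The DDIT4 lead region, 24.9 kb upstream of this inhibitor of mTOR signalling, had 295 in Ad-IκBαΔN cells and 386 in Ad-GFP cells, a difference of -0.39. All 3 lay in the highest bin, whose median was -0.24.

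At the other end, TIPARP, a gene for a mono-ADP-ribosyltransferase, had 65.7 in Ad-IκBαΔN cells and 61.8 in Ad-GFP cells, a log2 difference of 0.09 that was 0.26 relative to its bin. The lead region of the kinase gene SGK1 was weak in both groups, at 5.70 in Ad-IκBαΔN cells and 3.60 in Ad-GFP cells. Its difference of 0.54 was -0.15 relative to its bin. The 2 regions beyond 2-fold were also weak. The lead region of SCNN1A, which encodes a subunit of the epithelial sodium channel, lies over an exon of LTBR and had 8.76 in Ad-IκBαΔN cells and 3.68 in Ad-GFP cells, a log2 difference of 1.06. A secondary region of CEBPD, which encodes a C/EBP transcription factor, had 7.76 in Ad-IκBαΔN cells and 2.59 in Ad-GFP cells, a difference of 1.29. The lead region of CEBPD had 154 in Ad-IκBαΔN cells and 186 in Ad-GFP cells, a difference of -0.27.

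Regions of NF-κB-dependent inflammatory genes were weaker and higher in Ad-IκBαΔN cells. The list of 39 genes had 91 regions linked to 33 genes, with a median signal of 11.1 in Ad-IκBαΔN cells and 7.48 in Ad-GFP cells and a median log2 difference of 0.28. Relative to the bins the median was 0.02. At least 2-fold higher were 10 of the 91 regions, at least 2-fold lower 0, and 71 lay above 0. Over all regions the shares were 4.02%, 0.0186% and 52.5%. Among all regions of bins 1, 2 and 3, 25.6%, 10.4% and 3.35% were at least 2-fold higher. In these weak bins 93.8%, 91.3% and 89.2% lay above 0. Of the 33 lead regions, 22 lay above 0 and 24 were under 0.5 in size.

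Among them, the region 0.126 kb upstream of CXCL10, a chemokine gene, with the pair of κB matches shown above, had 5.40 in Ad-IκBαΔN cells and 1.59 in Ad-GFP cells. Its log2 difference of 1.30 was 0.61 relative to its bin. The region 0.119 kb upstream of RELB, which encodes a subunit of NF-κB, had 17.6 in Ad-IκBαΔN cells and 7.36 in Ad-GFP cells, a difference of 1.15 and one of 0.94 relative to its bin. The second RELB region had 5.90 in Ad-IκBαΔN cells and 2.92 in Ad-GFP cells. The lead region of the neutrophil chemokine gene CXCL1 had 11.2 in Ad-IκBαΔN cells and 6.03 in Ad-GFP cells, a difference of 0.79.

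The other regions of this list beyond 2-fold were weak. A region of LIF, a cytokine of the interleukin-6 family, had 6.10 in Ad-IκBαΔN cells and 1.36 in Ad-GFP cells, a log2 difference of 1.59, and another LIF region had 12.7 in Ad-IκBαΔN cells and 5.50 in Ad-GFP cells. At IRF1, an interferon regulatory factor gene, a region 11.6 kb downstream of the start had 11.9 in Ad-IκBαΔN cells and 4.03 in Ad-GFP cells, a difference of 1.36. A region of PTGS2, the gene of the prostaglandin-forming cyclooxygenase-2, had 8.49 in Ad-IκBαΔN cells and 2.78 in Ad-GFP cells, a difference of 1.33. The differences were 1.19 at the chemokine gene CX3CL1, 1.17 at the monocyte chemokine gene CCL2, 1.08 at TNFAIP2 and 1.01 at IL1B, with signals of 6.84 to 13.0 in Ad-IκBαΔN cells and 2.64 to 5.16 in Ad-GFP cells. Untreated Ad-GFP signals of all these weak regions, LIF, IRF1 and PTGS2 included, were 2.61 to 11.2. They exceeded the Ad-GFP value with budesonide except at the LIF region with 12.7. Whether the treatments share a scale is not known.

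At IL1B, LIF, CCL2, CX3CL1, PTGS2 and IRF1 the lead region was another one than that beyond 2-fold and differed by under 0.5. At TNFAIP2 it was also another one, with 15.2 in Ad-IκBαΔN cells and 8.37 in Ad-GFP cells and a difference of 0.79. The lead region of PTGS2 had 68.4 in Ad-IκBαΔN cells and 72.6 in Ad-GFP cells, a log2 difference of -0.08. That of LIF had 45.1 in Ad-IκBαΔN cells and 47.1 in Ad-GFP cells, a difference of -0.06. That of IRF1 had 8.97 in Ad-IκBαΔN cells and 8.56 in Ad-GFP cells, a difference of 0.06. The strongest lead region of the list, near CCL20, a chemokine gene of the airway epithelium, had 136 in Ad-IκBαΔN cells and 177 in Ad-GFP cells, a difference of -0.38. The next strongest, of the granulocyte growth factor gene CSF3, had 91.5 in Ad-IκBαΔN cells and 87.7 in Ad-GFP cells, a difference of 0.06. The region 0.43 kb upstream of CXCL2 had 34.7 in Ad-IκBαΔN cells and 45.7 in Ad-GFP cells, a difference of -0.39. The lowest lead region was in an intron of TNFAIP6, which encodes a hyaluronan-binding protein, with 4.05 in Ad-IκBαΔN cells and 6.35 in Ad-GFP cells. Its difference of -0.54 was -1.09 relative to its bin, the median of that bin being 0.55.

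**Figure D3:**
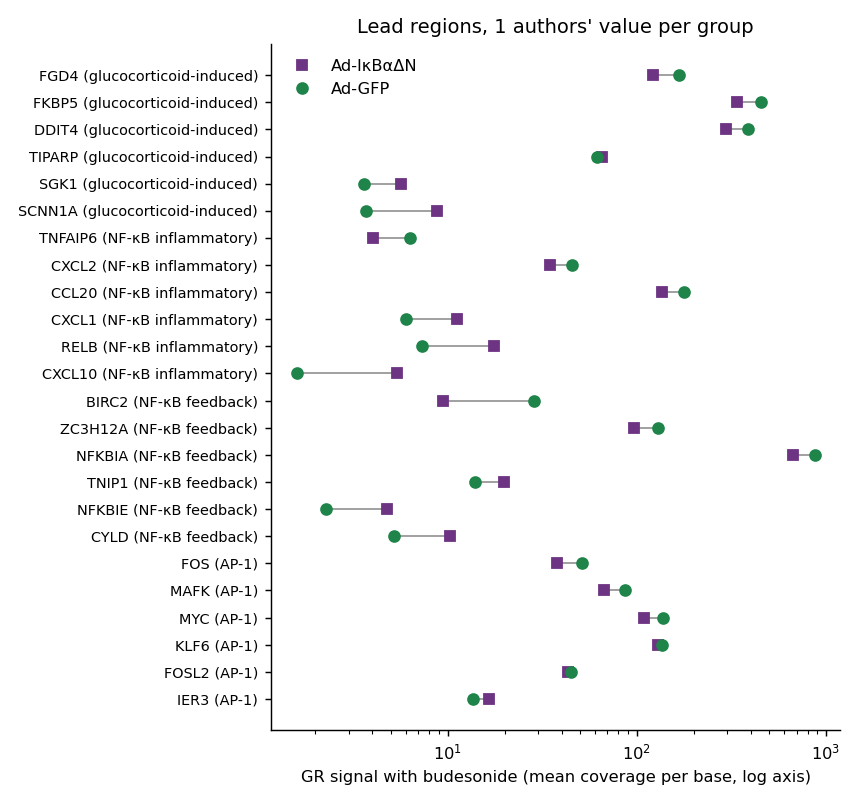
GR signal with budesonide, as mean coverage per base on a log axis, at the lead regions with the 3 lowest and 3 highest differences in each of 4 gene lists. Purple squares are Ad-IκBαΔN cells and green circles Ad-GFP cells, 1 authors' value each, and strong regions such as NFKBIA, at 668 and 871, have the square to the left while weak ones such as CXCL10, at 5.40 and 1.59, have it to the right, and BIRC2 at 9.50 and 28.5 has a wide gap with the square to the left.

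Genes that restrain NF-κB or its targets included the region with the lowest difference of all. This feedback list of 18 genes had 61 regions linked to 15, a median signal of 19.1 in Ad-IκBαΔN cells and 13.9 in Ad-GFP cells, and a median log2 difference of 0.22 that was 0.02 relative to the bins. Of these regions 3 were at least 2-fold higher and 1 was at least 2-fold lower, against 4.02% and 0.0186% of all regions. The lower one, 1.12 kb upstream of BIRC2 (chr11:102345892-102346291), had 9.50 in Ad-IκBαΔN cells and 28.5 in Ad-GFP cells, a log2 difference of -1.49 that was the lowest of all 10740. BIRC2 encodes a ubiquitin ligase of tumour necrosis factor receptor signalling, and the pair of κB matches of this region is shown above.

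The BIRC2 region was lower in Ad-IκBαΔN cells in every treatment. In untreated cells it had 7.69 in Ad-IκBαΔN cells and 141 in Ad-GFP cells, and with budesonide and IL1B it had 13.4 in Ad-IκBαΔN cells and 88.8 in Ad-GFP cells. It was thus low in all 3 Ad-IκBαΔN groups, and among the 3 Ad-GFP groups it was lowest with budesonide alone. The other region linked to BIRC2, 36.8 kb downstream of its start and holding a GRE match, had 15.4 in Ad-IκBαΔN cells and 6.41 in Ad-GFP cells, a log2 difference of 1.15. At the neighbouring gene BIRC3, which encodes a related ubiquitin ligase, 6 of 6 linked regions lay below 0, between -0.52 and -0.00. Relative to their bins they lay between -0.46 and 0.02. The lead region of BIRC3 had 162 in Ad-IκBαΔN cells and 211 in Ad-GFP cells, -0.14 relative to its bin.

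NFKBIA encodes IκBα, of which the virus carries a form, so its exons were looked at separately. The 1 region that overlaps an exon of NFKBIA (chr14:35403826-35404225) had 668 in Ad-IκBαΔN cells and 871 in Ad-GFP cells. Its log2 difference of -0.38 was -0.14 relative to its bin. The region had 9.04 in untreated Ad-IκBαΔN cells and 14.5 in untreated Ad-GFP cells. Whether its bases are part of the sequence in the virus was not tested. Of the 9 regions linked to NFKBIA, which lay between -0.14 and 0.56 relative to their bins, 7 lay below 0 as deposited and 2 above. Those 2 were weak, with 19.4 and 8.29 in Ad-IκBαΔN cells and 11.0 and 4.45 in Ad-GFP cells.

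Among the other feedback genes, the RNase gene ZC3H12A had 96.2 in Ad-IκBαΔN cells and 130 in Ad-GFP cells at its lead region, a log2 difference of -0.43. CYLD, the gene of a deubiquitinase that restrains NF-κB, had 10.3 in Ad-IκBαΔN cells and 5.21 in Ad-GFP cells just downstream of its start, a difference of 0.87. NFKBIE, which encodes another IκB protein, had 4.75 in Ad-IκBαΔN cells and 2.29 in Ad-GFP cells, a difference of 0.81 that was 0.11 relative to its bin. TNIP1, which encodes a partner of the A20 protein, had 19.8 in Ad-IκBαΔN cells and 14.0 in Ad-GFP cells, a difference of 0.47 that was 0.44 relative to its bin. At TNFAIP3, the gene of A20 itself, a region beyond 2-fold had 6.94 in Ad-IκBαΔN cells and 2.86 in Ad-GFP cells, and its lead region had 48.6 in Ad-IκBαΔN cells and 56.0 in Ad-GFP cells. At BCL3, an atypical IκB protein gene, a region in an intron had 23.1 in Ad-IκBαΔN cells and 10.3 in Ad-GFP cells, a difference of 1.09, and the lead region had 52.2 in Ad-IκBαΔN cells and 58.3 in Ad-GFP cells.

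Regions of AP-1 and immediate early genes were close to the level of other regions of like signal. AP-1 factors often keep open the chromatin that GR binds. The list of 18 genes had 33 regions linked to 10, with a median signal of 23.8 in Ad-IκBαΔN cells and 24.6 in Ad-GFP cells and a median log2 difference of -0.04, or -0.07 relative to the bins. Of its 10 lead regions 9 lay below 0, and these 9 were strong regions of bins 7 to 10. Of all regions in bins 7, 8, 9 and 10, 34.9%, 21.6%, 12.4% and 5.31% lay above 0. The region 23.1 kb downstream of the FOS start had 37.8 in Ad-IκBαΔN cells and 51.5 in Ad-GFP cells, a difference of -0.44. MAFK, a small MAF factor gene, had 66.8 in Ad-IκBαΔN cells and 87.1 in Ad-GFP cells, and MYC had 109.7 in Ad-IκBαΔN cells and 138 in Ad-GFP cells, with differences of -0.38 and -0.33. The lead regions of FOSL2 and KLF6 differed by -0.04 and -0.08, which became 0.13 and 0.16 relative to their bins. That of IER3 had 16.5 in Ad-IκBαΔN cells and 13.6 in Ad-GFP cells, a difference of 0.27. The region beyond 2-fold, 1 of the 33 against 4.02% of all regions at least 2-fold higher, was a secondary region of KLF6. It had 7.49 in Ad-IκBαΔN cells and 2.15 in Ad-GFP cells, a difference of 1.43.

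Genes of the response to virus and genes of the GR machinery had few linked regions. The interferon and virus sensing list had 10 regions, 0 beyond 2-fold either way, against 4.02% of all regions at least 2-fold higher. Its median log2 difference was -0.10, or -0.25 relative to the bins. Its highest lead region was that of ISG15, an interferon-induced ubiquitin-like protein gene, with 3.92 in Ad-IκBαΔN cells and 1.63 in Ad-GFP cells. The difference of 0.90 was 0.21 relative to its bin. GR and its cofactors had 11 regions and a median of -0.05 that was 0.06 relative to the bins. The coactivator gene NCOA3 had 94.99 in Ad-IκBαΔN cells and 129 in Ad-GFP cells, a difference of -0.43 that was -0.20 relative to its bin. FOXA1, a pioneer factor gene, had 6.84 in Ad-IκBαΔN cells and 4.06 in Ad-GFP cells, a difference of 0.63 that was 0.09 relative to its bin.

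The lung epithelial list had 37 regions, 1 of them at least 2-fold higher, against 4.02% of all regions. Its median was -0.03 both as deposited and relative to the bins. NKX2-1, the lung lineage factor, had 35.7 in Ad-IκBαΔN cells and 47.1 in Ad-GFP cells, a difference of -0.39 that was -0.27 relative to its bin. ABCA3, a surfactant lipid transporter gene, had 6.91 in Ad-IκBαΔN cells and 2.97 in Ad-GFP cells, a difference of 0.99 that was 0.30 relative to its bin. Housekeeping genes had 7 regions with a median of 0.00 that changed sign with the setting, and the highest lead region among them, that of EEF1A1, had 15.2 in Ad-IκBαΔN cells and 10.4 in Ad-GFP cells. Markers of other cell types had 5 regions linked to 4 genes and a median of 0.19, with COL1A1 lowest at -0.04 and PTPRC highest at 0.27. GR ChIP-seq gives no expression level, so neither the cell type nor the presence of other cells could be checked from these values.

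**Figure D4:**
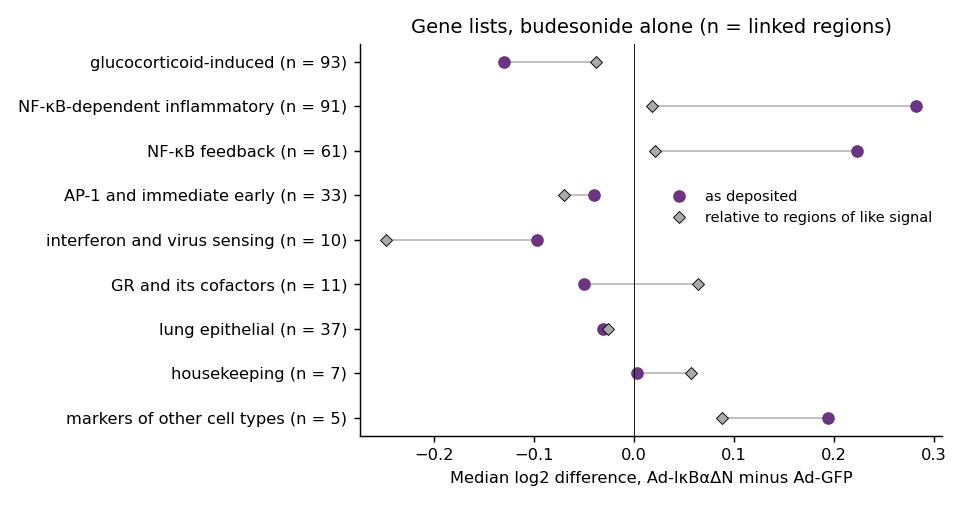
Median log2 difference, Ad-IκBαΔN minus Ad-GFP with budesonide, over the linked regions of 9 gene lists, as deposited (purple dots) and after subtraction of the median of each region's signal bin (grey diamonds). The NF-κB-dependent inflammatory list moves to 0.02 from 0.28 as deposited and the glucocorticoid-induced list to -0.04 from -0.13, so that the lists of over 30 regions all lie within 0.1 of 0 relative to regions of like signal.

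Outside the lists, the 8 regions with the highest difference were all of the increasing class and of the 2 lowest bins. The highest of all lay 0.272 kb upstream of STX11, which encodes a syntaxin of vesicle fusion in immune cells, with 6.13 in Ad-IκBαΔN cells and 0.475 in Ad-GFP cells, a log2 difference of 2.27. Its untreated signals of 8.34 in Ad-IκBαΔN cells and 7.82 in Ad-GFP cells were close to each other. The difference therefore went with a very low value in Ad-GFP cells given budesonide. Low values in Ad-GFP cells were also found at a region linked to TCIM, with 9.33 in Ad-IκBαΔN cells and 1.45 in Ad-GFP cells, and at an intron of SUSD4, with 6.75 in Ad-IκBαΔN cells and 0.900 in Ad-GFP cells. ANXA3, which encodes an annexin, GATD3, PIK3R5, which encodes a regulatory subunit of PI3-kinase gamma, TNFSF18, a ligand gene of the tumour necrosis factor family, and MAP10 followed with differences of 1.95 to 1.74.

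The 8 lowest differences outside the lists were smaller in size. A region whose nearest gene start, that of SALL1, was 157 kb away had 2.66 in Ad-IκBαΔN cells and 6.87 in Ad-GFP cells, a log2 difference of -1.11, and was the second of the 2 regions at least 2-fold lower. The next was a region of chromosome 21 far from any protein-coding gene, with 23.7 in Ad-IκBαΔN cells and 44.7 in Ad-GFP cells, a difference of -0.88. Introns of TNS3 and NEDD4L and regions nearest to KLHDC4, KRBOX4, GCH1 and ASRGL1 had differences between -0.83 and -0.70. The GCH1 region was the strongest of these, with 35.0 in Ad-IκBαΔN cells and 58.4 in Ad-GFP cells, near the gene of the first enzyme of tetrahydrobiopterin synthesis.

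On the deposited scale, the regions with the strongest GR signal were nearly all lower in Ad-IκBαΔN cells by a similar amount. In the highest bin, 1017 of 1074 lay below 0. The strongest of all, upstream of PRR20G, had 1194 in Ad-IκBαΔN cells and 1492 in Ad-GFP cells, a log2 difference of -0.32. It was among the regions called repetitive below, although its value was lower in Ad-IκBαΔN cells. The region 2.89 kb downstream of the start of ZFP36, which encodes an mRNA-destabilising protein, had 883 in Ad-IκBαΔN cells and 997 in Ad-GFP cells, a difference of -0.18. After NFKBIA came regions of SLC45A4, SLC45A1 and ZBTB7B, with 514 to 544 in Ad-IκBαΔN cells and 648 to 744 in Ad-GFP cells and differences of -0.32 to -0.45. With quantile normalization the differences were 0 at PRR20G, ZFP36, NFKBIA and ZBTB7B, and -0.19 and -0.13 at SLC45A4 and SLC45A1. The lowest of that bin lay near FAM133A, SHISAL2A, MEGF9, SYT15, ATP9A and FAM135A, between -0.57 and -0.53, at 58.7 to 101.9 in Ad-IκBαΔN cells and 85.5 to 148 in Ad-GFP cells.

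The strong regions with the highest differences were of repetitive sequence. A region was called repetitive when under 80% of its 10-base words were distinct, a threshold set after the values had been seen, and 98 of the 10740 regions, or 0.912%, met it. In the highest bin 21 regions met it, and the 10 regions with the highest differences there were all among these 21. The 21 had a median log2 difference of 0.10, with 12 above 0. The other 1053 had a median of -0.24, with 45 above 0 and a highest value of 0.16 at a region near CCR7, with 72.6 in Ad-IκBαΔN cells and 64.7 in Ad-GFP cells. Reads from tandem repeats can align to many copies, and the part of alignment in these values was not tested.

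The COL4A2 intron repeat shown above had 239 in Ad-IκBαΔN cells and 163 in Ad-GFP cells with budesonide, a log2 difference of 0.55. Its untreated signals were 14.4 in Ad-IκBαΔN cells and 3.88 in Ad-GFP cells, so the strong signal appeared with the glucocorticoid in both. With budesonide and IL1B it had 515 in Ad-IκBαΔN cells and 50.8 in Ad-GFP cells. Repeats in introns of PTPRN2, GRAMD4, DECR1 and FOXK2 were also higher in Ad-IκBαΔN cells in both treatments. At DECR1 the signals were 643 in Ad-IκBαΔN cells and 507 in Ad-GFP cells with budesonide, and 1001 in Ad-IκBαΔN cells and 105 in Ad-GFP cells with budesonide and IL1B.

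Others of these 10 repeats had signal without the drug. Regions near the chromosome ends, nearest to TUBB8, PLEKHG4B and PARD6G, had 157, 181 and 118 in Ad-IκBαΔN cells and 121, 157 and 101.3 in Ad-GFP cells with budesonide. Their untreated signals were 149, 282 and 127 in Ad-IκBαΔN cells and 158, 278 and 92.3 in Ad-GFP cells, so these 3 were strong without the glucocorticoid too. A region nearest to ZNF707 had 105.4 in Ad-IκBαΔN cells and 68.4 in Ad-GFP cells with budesonide, and 59.3 in Ad-IκBαΔN cells and 43.1 in Ad-GFP cells when untreated.

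In sequence, the 432 higher regions were poor in GREs and rich in κB motifs, as weak regions were in general. A GRE was found in 9 of the 432, or 2.08%, and in 15.2% of the other 10308 regions, with 14.7% of all regions and 2.84% of windows 5 kb away. A κB motif was found in 242, or 56.0%, and in 19.9% of the others, with 21.3% of all regions and 3.72% of windows 5 kb away. The AP-1 motif TGACTCA, searched on both strands, was in 18.8% of the 432 and 22.9% of the others, with 22.8% of all regions and 6.84% of windows 5 kb away. Against regions of like signal the gaps were smaller. In the 3 lowest bins a κB motif was in 56.5% of the 423 higher regions and 48.1% of the 2799 others, and a GRE in 1.89% of the higher regions and 4.29% of the others. A match is a description of the letters and not a bound site. How regions were chosen for the table is unknown, and its part in the κB share of weak regions was not tested.

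Seen from the motif, the 2290 regions with a κB match had a median log2 difference of 0.39 and the 8450 without one of -0.04, but relative to the bins the medians were 0.03 and -0.00. Of the regions shown above, STX11, CXCL10 and BIRC2 all hold κB matches and lay at opposite ends of the range. The 1580 regions with a GRE had a median of -0.09, and -0.01 relative to the bins.

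The difference between the viruses with budesonide alone is set beside that in the other treatments, which share no library with it. In those other treatments the values of the 2 viruses may be scaled differently, as the processing section gives. The median log2 difference over all regions, Ad-IκBαΔN minus Ad-GFP, was 0.04 in untreated cells, 0.02 with budesonide and -0.85 with budesonide and IL1B (1 ng/ml). In the increasing class it was 0.03 in untreated cells, 0.32 with budesonide and -2.01 with budesonide and IL1B. That last value depended on scale and was -1.08 when the groups were re-centred to 1 median and -1.09 after quantile normalization. Of the 432 regions higher with budesonide, 430 lay below 0 with budesonide and IL1B, and 234, or 54.2%, lay above 0 in untreated cells. Weak regions in general did likewise, since 1073 of the 1074 regions of the lowest bin lay below 0 with budesonide and IL1B, against 72.4% of all regions, and 52.9% of all regions lay above 0 in untreated cells. Their median signals in Ad-IκBαΔN cells were 7.70 untreated, 7.18 with budesonide and 11.7 with budesonide and IL1B, and in Ad-GFP cells 7.31, 2.56 and 50.4. The 432 regions were chosen by their budesonide values, which favours a low value in Ad-GFP cells given budesonide alone. Their highest median, 50.4, was in Ad-GFP cells with budesonide and IL1B, as was that of the lowest bin, 45.4. The rule by which regions entered the table is unknown. If it drew on signal in that group, weak regions would tend to lie below 0 with IL1B by selection alone. The part of such a rule in these counts was not tested.

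Across all 10740 regions, the difference with budesonide correlated with that in untreated cells at a Pearson r of -0.02 and with that in budesonide and IL1B at -0.51. Within the increasing class the second r was -0.21, and within the lowest and highest bins it was 0.02 and 0.04. These correlations are across regions, which share libraries and signal level and are not replicates. The strong regions went both ways, since FKBP5 had 404 in Ad-IκBαΔN cells and 240 in Ad-GFP cells with budesonide and IL1B, the opposite order to budesonide alone. At RELB the signals were 8.08 in Ad-IκBαΔN cells and 16.6 in Ad-GFP cells untreated, and 19.7 in Ad-IκBαΔN cells and 98.1 in Ad-GFP cells with budesonide and IL1B. At CXCL10 they were 10.9 in Ad-IκBαΔN cells and 3.06 in Ad-GFP cells untreated, and 10.7 in Ad-IκBαΔN cells and 57.3 in Ad-GFP cells with budesonide and IL1B. The higher value in Ad-IκBαΔN cells with budesonide alone was reversed with IL1B at both genes. The unknown rule of entry into the table limits this reversal too.

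**Figure D5:**
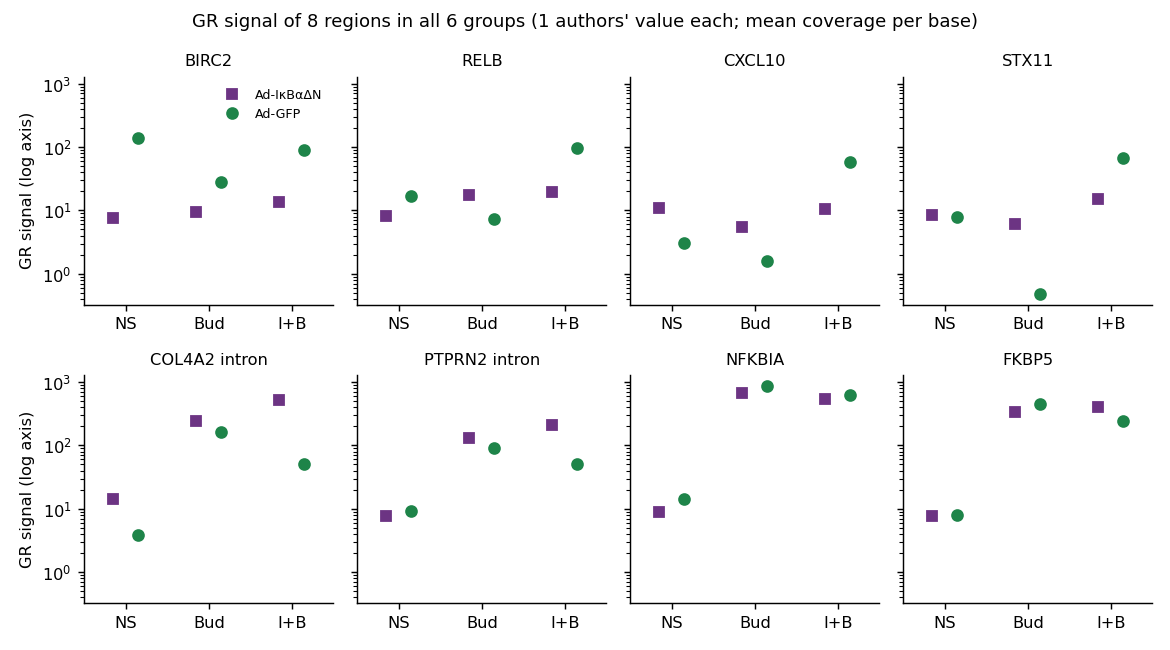
GR signal, read as mean coverage per base on a log axis, at 8 regions in untreated cells (NS), with budesonide (Bud) and with budesonide and IL1B (I+B), with Ad-IκBαΔN cells as purple squares left of Ad-GFP cells as green circles and 1 authors' value per point. The NS and I+B values of Ad-IκBαΔN cells were not all whole-number coverage and may be on another scale. BIRC2 is lower in Ad-IκBαΔN cells in every treatment, while RELB, CXCL10 and STX11 are higher with budesonide alone, at 17.6, 5.40 and 6.13 in Ad-IκBαΔN cells and 7.36, 1.59 and 0.475 in Ad-GFP cells, and lower with I+B.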

How the data were processed

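GR ChIP-seq values of A549 cells were used as deposited, 1 log2 intensity per region and group. Named in the submitters' processing notes are GRCh38 (hg38), DiffBind 3.2, MACS2 2.2.7.1, Bowtie2 2.4.4, SAMtools, FastQC 0.10.1 and bcl2fastq. The tool behind the values, the pooling of libraries and the scaling are not given in the sources used here. Deposited log2 values of both budesonide groups, raised as powers of 2 less 1 and multiplied by the 400 bp width, were whole numbers in 100% of regions within 0.001, so they were read as log2(signal + 1) of mean coverage, and depth per library is unknown. The share was 0.214% in untreated Ad-IκBαΔN cells and 75.3% in Ad-IκBαΔN cells with budesonide and IL1B. In the Ad-GFP groups of these treatments it was 99.99% and 100%. The scaling of the viruses may therefore differ in these treatments. The table writes Ad-IκBα for the labels' Ad-IκBαΔN.

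Computed here were the difference per region, a 2-fold call, 10 signal bins, links to the nearest GENCODE 44 protein-coding gene start within 100 kb (7574 regions) and motif matches on hg38, with Python 3.11.15, numpy 2.4.6 and pandas 2.3.3. The calling step was tested on simulated data with noise of the same size at every signal level. That test does not measure false calls at low signal, where the spread across regions was wider. RELA and input libraries were not used here. Members, the 9 gene lists and alternatives were chosen with earlier results of these data known. Named were the 3 highest and 3 lowest lead regions and all called regions of the first 4 lists, 1 of each in the other lists, the 8 highest and 8 lowest regions outside the lists, the 6 highest, 6 lowest and 6 strongest regions of the highest bin and any region over an NFKBIA exon. Lead regions of genes with a called secondary region, all linked regions of FKBP5, NFKBIA, BIRC2, BIRC3 and RELB, and CSF3, CCR7, DECR1, PARD6G, PLEKHG4B and FOXK2 were added after their values were seen. Some regions that this rule names are not reported here.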

Additional observations from a re-analysis of the deposited data

How the results depend on the processing

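The count of 432 higher and 2 lower regions rested on the deposited scale. It was 23 and 29 after quantile normalization of both groups, 11 and 1 with log2(signal + 5), 21 and 1 without the 25% weakest regions, and 19 and 29 relative to the bins, an alternative added after the data were seen. With the groups re-centred to 1 median there were 443 higher regions. After quantile normalization the median log2 differences were 0.00134 for all regions, 0.0114, 0.00204 and -0.00583 for the increasing, unchanged and decreasing classes, -0.0374 for the glucocorticoid-induced list and 0.0488 for the NF-κB-dependent inflammatory list. The span between the medians of the lowest and highest bins was then 0.00818, this normalization giving both groups the same distribution, and the share of higher regions with a κB motif was 47.8%. Relative to the bins the same medians were 0, 0.0118, -0.000977, -0.00790, -0.0385 and 0.0184. With log2(signal + 5) the increasing and decreasing classes had 0.221 and -0.0898. Without the 25% weakest regions the inflammatory list had 0.125. The virus difference with budesonide and IL1B in the increasing class was -1.09 after quantile normalization and -1.08 after re-centring. The sign changed under at least 1 setting at 7 of 80 named regions, among them those of SGK1, KLF6, FOSL2, COL1A1, PTPRC and ZFP36. No paired analysis was possible because the table holds 1 value per group, and for that reason no library could be left out and no replicate block fitted. Depth per library is unknown, so low signals carry a counting error that could not be given.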

Other observations

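A run of 12 regions in CCDC200 on chromosome 17 (43233636 to 43300276 in hg38) held strong GR signal that was not lower in Ad-IκBαΔN cells. With budesonide the signals were 65.9 to 100.8 in Ad-IκBαΔN cells and 62.9 to 99.4 in Ad-GFP cells, with log2 differences between -0.01 and 0.16 and 11 of 12 above 0, where all 12 lay in the 2 highest bins. In untreated cells they were 12.9 to 19.5 in Ad-IκBαΔN cells and 29.0 to 45.1 in Ad-GFP cells, with 12 of 12 below 0. Over all regions 52.9% lay above 0 in untreated cells, where the values of the 2 viruses may be scaled differently. The 12 regions were also alike in G and C content, at 53.8% to 54.8%. Whether they are copies of 1 sequence that share reads was not tested, so they may not be 12 independent regions. By chromosome, regions of chromosome 17 had the highest median relative to the bins, 0.10 over 533 regions. Among chromosomes with over 100 regions, the lowest was -0.09 over 224 regions of chromosome 18.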
